A study of Ovis aries with 8 samples.

Results

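Solute carriers are the membrane proteins that move amino acids, sugars, organic acids, metals and metabolites into and out of cells and organelles. The members were all probes on a sheep array whose gene name begins with SLC, or whose description names a solute carrier family, an amino acid transporter, a glucose transporter or a monocarboxylate transporter. This rule found 51 probes, of which 2 for SLC9A3R1, a scaffold protein that carries nothing, were left out by the rule. That left 49 of the 15008 probes on the array, standing for 35 of the 967 genes that could be named there, with 1 probe for 21 of them and 2 probes for 14. A probe was tested if 4 or more of the 8 arrays read it well above background, as 39 member probes for 30 genes were, among 12170 tested probes in all.

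The lungs of 8 sheep fetuses were profiled at about 130 days of gestation, where term is 147 days. In each of 4 sets of twins a fetus was infused with 0.2 mg of aldosterone, the adrenal steroid that acts through the mineralocorticoid receptor, over 48 hours, and its twin served as the vehicle control. Infusions began 5 days after the fetuses underwent surgery, which both groups share. The groups therefore hold 4 aldosterone lungs and 4 control lungs, numbered as replicates 1 to 4, and same-numbered lungs are treated as twins. Standard errors and limma p values below leave this pairing out unless a block is named. Whole lung RNA was used, so no value belongs to a single cell type. The question is which carriers of the late-gestation fetal lung change in amount of mRNA within 2 days of added aldosterone.

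Most carriers are named for what they move. Facilitative carriers such as the GLUT family (SLC2) let a solute run down its gradient, exchangers such as SLC7A5 trade one solute for another, and sodium-coupled carriers (SLC1, SLC5, SLC6) use the gradient kept by the sodium pump. The SLC25 family serves mostly the inner mitochondrial membrane. In kidney and gut aldosterone is known for raising sodium transport, and in the lung before birth epithelial ion transport turns from secreting to absorbing liquid. SLC7A5, also called LAT1, brings leucine and other large neutral amino acids into growing cells, and SLC2A3 (GLUT3) is a glucose carrier of high affinity.

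Each probe is a DNA oligonucleotide of 60 bases, so a value belongs to the stretch that the probe matches and not to the whole mRNA. SLC7A5 comes first because its groups did not overlap. The SLC16A1 pair is shown because its probes disagree on whether the mRNA can be measured, with the first not well above background on any array and the second well above it on all. Sequences are written 5′ to 3′ as the array files give them.
SLC7A5: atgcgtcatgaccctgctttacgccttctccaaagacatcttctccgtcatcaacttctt
SLC16A1, probe below background: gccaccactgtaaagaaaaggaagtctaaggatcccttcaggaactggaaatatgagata
SLC16A1, tested probe: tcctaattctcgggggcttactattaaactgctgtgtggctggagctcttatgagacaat
The probes of SLC2A3 lie in different stretches, and their first 30 bases show it.
SLC2A3, brighter probe: ggaatttttcccagttctcagtgaccaggt
SLC2A3, other probe: attttggttctaagttctcaccattccctc
The longest run of bases that the SLC2A3 probes share is 8. By contrast, the probes of SLC1A1, SLC2A1, SLC2A8, SLC5A8 and SLC7A1 come in pairs that share 59 of 60 bases, so the pair measures nearly the same stretch again. The SLC2A5 probes share only their overlap of 20 bases, in capitals: AGATTACTGATCCCAAATTA. No member probe shared 20 or more bases with a probe of another gene on the array. The G and C content of the member probes ran from 35% to 60% with a median of 45%, against a median of 43.33% over all probes.

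No carrier passed the adjusted threshold, and for 22 of the 30 the difference between groups was smaller than the pooled SD of the lungs within a group. SLC7A5 was 1 of 2 genes whose 4 aldosterone lungs all lay above the 4 control lungs, and 1 of 2 with an unadjusted limma p under 0.05. Among the 12170 tested probes 0 passed limma's adjusted p of 0.05 (0%), and 228 reached an unadjusted p under 0.05 (1.87%), 155 of them higher (1.27%) and 73 lower (0.6%) after aldosterone. Groups did not overlap for 159 (1.31%), with the aldosterone lungs above for 104 (0.855%) and below for 55 (0.452%). Of the 30 tested carrier genes 0 passed after adjustment. An unadjusted p under 0.05 was reached by 2, both higher, and the same 2 had groups that did not overlap, which is 6.67% in each case. Of all 788 named genes tested, by 1 probe each, 18 were higher and 8 lower at an unadjusted limma p under 0.05. Groups of these 788 did not overlap for 11 genes above and 2 below. The carrier counts are of 2 genes, and the members were chosen with earlier results known.

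The mean of 18 carrier genes was higher after aldosterone and that of 12 was lower, and 60% higher stands beside 51.5% over all tested probes. Of the 788 named genes tested, counted by 1 probe each like the carriers, 439 were higher and 349 lower. The median log2 difference of the carriers was 0.07, against 0.01 over all tested probes and 0.03 over named genes. In same-numbered pairs 5 genes were higher in the aldosterone lung of all 4 pairs, SLC7A5, SLC39A7, SLC25A26 and SLC25A5 among them, or 16.7% against a background of 7.67%. SLC5A1 was the 1 carrier gene lower in all 4 pairs, or 3.33% against 5.64%. Of the 788 named genes 57 were higher and 27 lower in all 4 pairs. When the replicate number entered as a block, 539 of all tested probes had an unadjusted p under 0.05 (4.43%) and again 0 passed after adjustment (0%). Among the carriers SLC5A1 joined SLC7A5 there, making 3 genes in all.

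**Figure D1:**
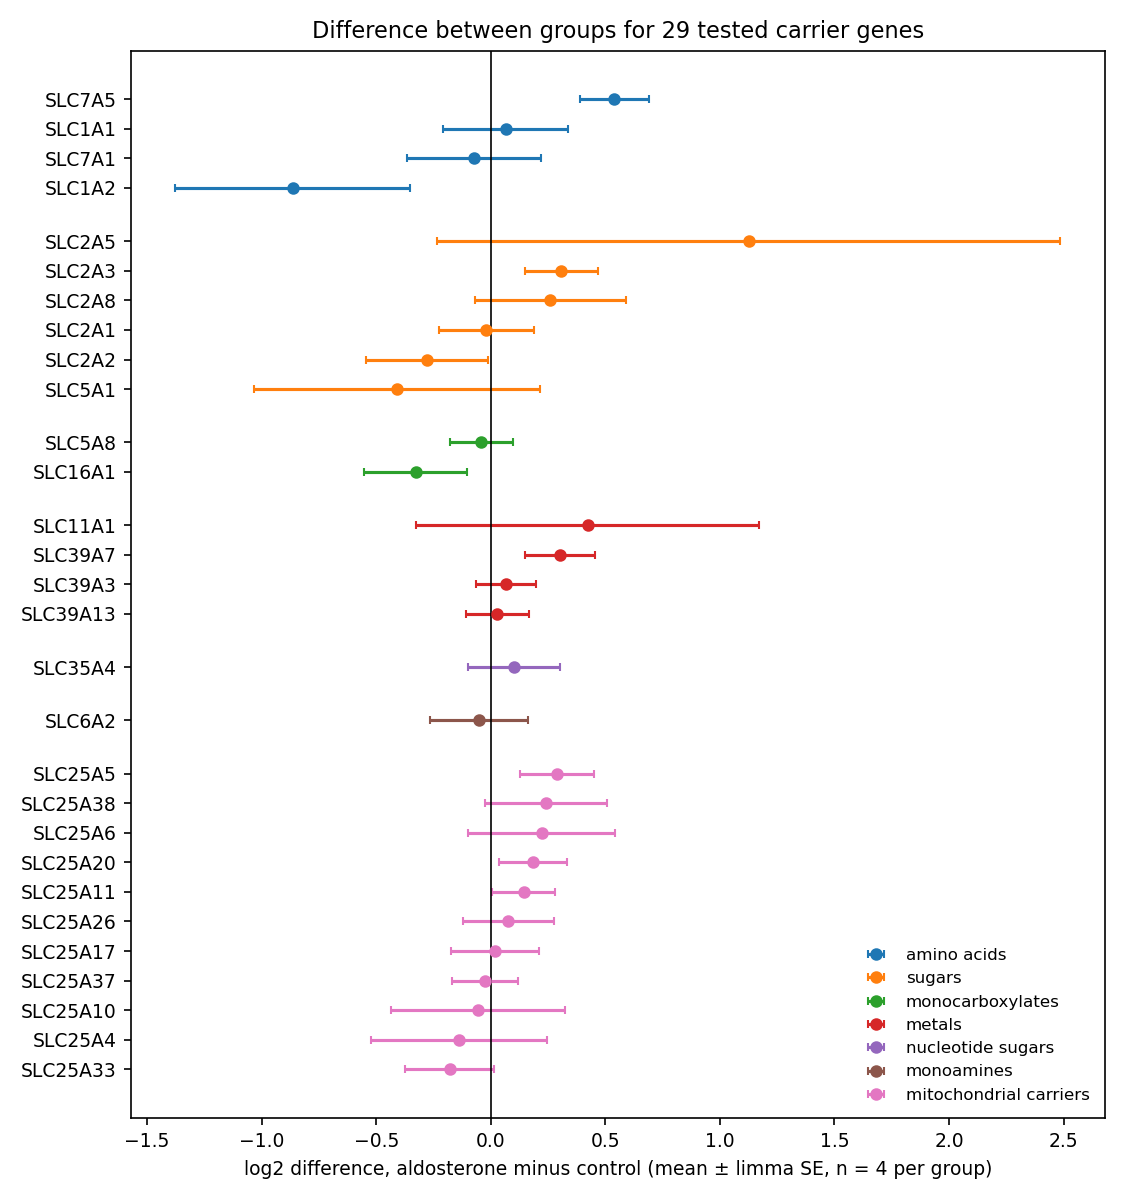
The x axis is the log2 difference, aldosterone minus control, and each of the 29 points is a carrier gene with limma's standard error, coloured by what it carries. SLC7A5 lies at 0.54, more than 2 standard errors from 0, and the widest bars belong to SLC2A5 and SLC11A1.

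Spread among lungs differed widely between carriers. The pooled SD within groups ran from 0.13 for SLC39A3 to 2.33 for SLC2A5 on the log2 scale, with a median of 0.30 over the 30 genes against 0.29 over all tested probes. SLC7A5 was among the steadier ones at 0.18.

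Amino acid carriers. Of 6 amino acid carriers on the array 4 could be tested, and SLC7A5 was higher in every aldosterone lung while the other 3 had overlapping groups. The SLC7A5 values below are log2 signal less the array's 75th percentile. The 4 control lungs read -6.28, -5.90, -6.21 and -6.14, and the 4 aldosterone lungs -5.55, -5.53, -5.87 and -5.43. The groups do not overlap, but the gap between the lowest aldosterone lung and the highest control lung is 0.03. The mean was -6.13 ± 0.17 (SD, n = 4) in controls and -5.60 ± 0.19 (SD, n = 4) after aldosterone, a log2 difference of 0.54 ± 0.15 (SE), or 1.45-fold. By pair the differences were 0.73, 0.38, 0.34 and 0.71. In limma the unadjusted p was 0.00595 and the adjusted p = 0.99999, so the difference exceeds the spread between these lungs but not what a search through all probes allows. In whole lung, a change in the share of cells of a type and a change in mRNA per cell cannot be told apart, here or below.

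The SLC7A5 spot was dim, which bears on the size of its difference. Its mean signal was 90.0 to 110.9 units over the 8 arrays where the local background was 71 to 79.5, and after the authors' background subtraction 17.8 to 36.3 units remained. It was nonetheless called well above background on all 8 arrays. With normexp background correction, which handles dim spots differently, the log2 difference was 0.90 when scaled to the 75th percentile. That setting moved the median of all probes up by 0.17, and it raised other dim carriers by more. SLC7A1 went from -0.07 to 0.74, SLC6A2 from -0.05 to 0.74 and SLC2A2 from -0.28 to 0.66. How much of the 0.90 is this lift was not tested. After normexp with quantile normalization the SLC7A5 difference was 0.11 ± 0.09 (SE), its unadjusted limma p was above 0.05 and its groups overlapped. Direction was the same in all of the 20 settings tried, and the smallest adjusted p of SLC7A5 in any of them was 0.407.

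Markers of dividing cells also averaged higher after aldosterone. Each of 6 tested genes of the cell division list had a higher mean, 4 of them with an unadjusted limma p under 0.05 (5 when replicates were blocked). Over all tested probes 1.87% had such a p, and 4.43% when replicates were blocked. The list was chosen with earlier results of these data known. The list's summed level ran from 0.86 to 0.96 in controls and from 0.88 to 1.67 after aldosterone on the log2 scale. The part of cell division in the SLC7A5 result was not tested.

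SLC1A1, SLC1A2 and SLC7A1 completed the tested amino acid carriers. SLC1A2 (EAAT2), the main glutamate carrier of astrocytes, had the most negative difference of all 30 genes at -0.86 ± 0.51 (SE, n = 4 per group). Its control lungs read -5.74, -5.96, -6.62 and -5.72 and its aldosterone lungs -6.14, -8.56, -6.21 and -6.58. The value of aldosterone replicate 2 is far below the others, the groups overlap, and without that lung the difference was -0.30 ± 0.25. The probe was above background on 3 control and 2 aldosterone arrays, and under normexp with the 75th percentile the sign turned, to 0.58. A second SLC1A2 probe, which shares 58 bases with it, was above background on 3 control and 1 aldosterone arrays. It gave -0.96 ± 0.45 (SE), with pair differences of -0.95, -1.55, 0.02 and -1.35. Its unadjusted limma p was 0.0643, and 0.0115 when replicates were blocked, where adjusted p = 0.878. SLC1A1 (EAAT3), the sodium-coupled carrier of glutamate and aspartate in many epithelia, differed by 0.07 ± 0.27. For SLC7A1 (CAT-1), which brings arginine and lysine into cells, the difference was -0.07 ± 0.29. SLC1A3 and SLC7A8, the glutamate carrier EAAT1 and the neutral amino acid exchanger LAT2, were above background on too few arrays to be tested.

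**Figure D2:**
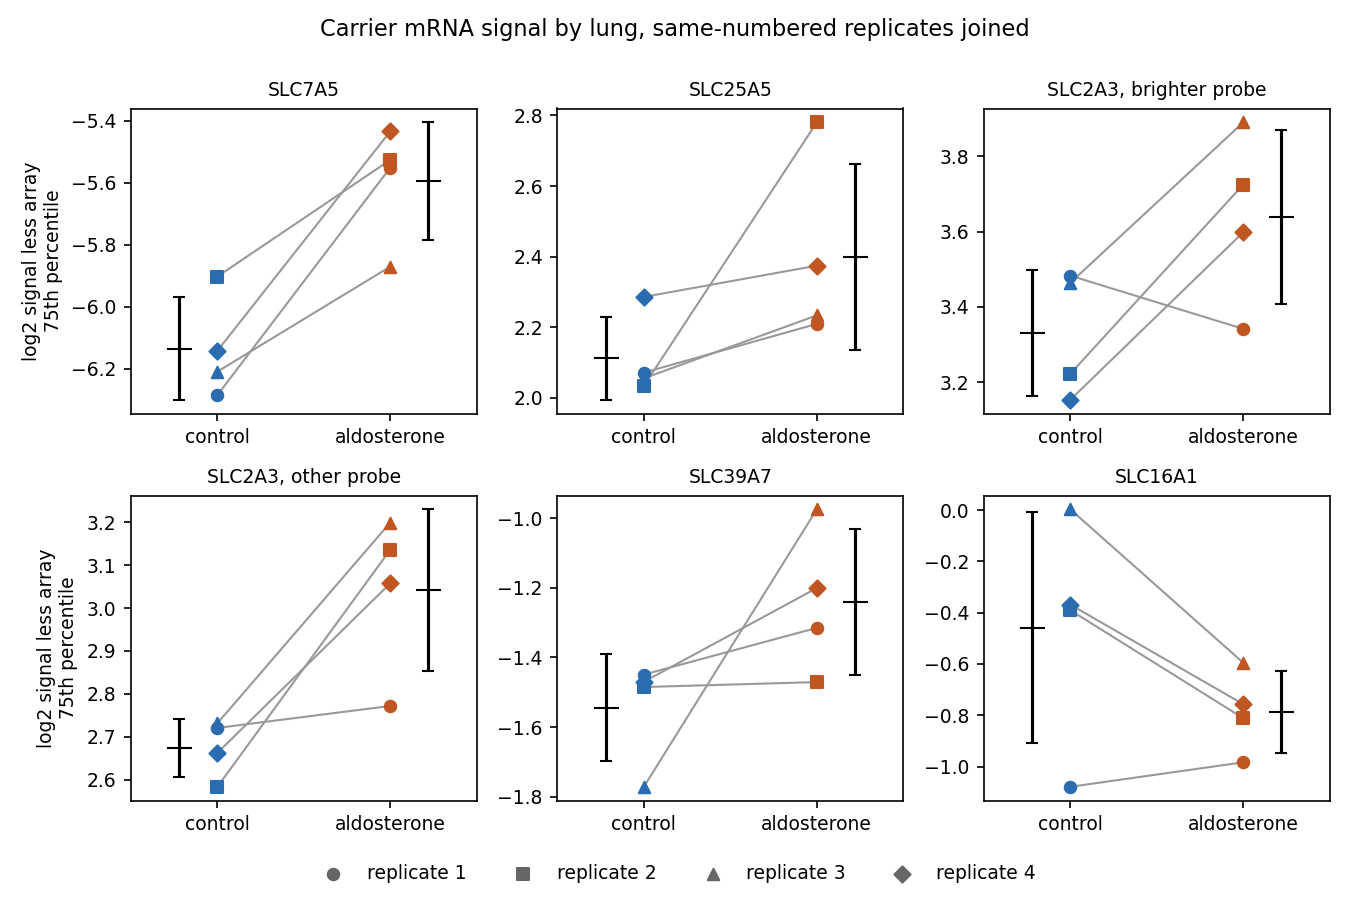
The y axis is the log2 signal less the array's 75th percentile in each lung, with a scale of its own in every panel. Grey lines join same-numbered lungs, and black bars are the group mean ± SD (n = 4). SLC7A5 is higher at the aldosterone end of all 4 lines, with controls between -6.28 and -5.90 and aldosterone lungs between -5.87 and -5.43, and SLC16A1 is lower there on 3 of 4.

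Sugar carriers. The sugar carriers did not move one way: 3 of the 6 had a higher mean after aldosterone and 3 a lower one. SLC2A3, the GLUT3 glucose carrier, was higher in 3 of 4 pairs by its brighter probe and in 4 of 4 by the other. By the brighter probe the control lungs read 3.48, 3.22, 3.46 and 3.15, and the aldosterone lungs 3.34, 3.73, 3.89 and 3.60. Aldosterone replicate 1 lies among the controls, so the groups overlap. The log2 difference was 0.31 ± 0.16 (SE), or 1.24-fold, with an unadjusted limma p of 0.087 and adjusted p = 0.99999. The pairs gave -0.14, 0.50, 0.43 and 0.45.

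The second SLC2A3 probe, which matches another stretch of the mRNA, read 2.72, 2.58, 2.73 and 2.66 in controls and 2.77, 3.14, 3.20 and 3.06 after aldosterone. All 4 aldosterone values lie above all 4 control values, although replicate 1 does so by only 0.04. Its log2 difference was 0.37 ± 0.14 (SE), with an unadjusted limma p of 0.0251 and adjusted p = 0.99999. Both probes place aldosterone replicate 1 lowest of its group and replicates 2 to 4 above every control. Over the settings tried the difference by the brighter probe ran from 0.22 to 0.41.

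SLC2A1 (GLUT1), the widespread basal glucose carrier, showed no difference that the lungs could resolve. Controls read -2.0, -1.61, -1.85 and -1.84, aldosterone lungs -2.41, -1.50, -1.68 and -1.79, and the log2 difference was -0.02 ± 0.21 (SE). SLC2A8 (GLUT8), which sits mostly on membranes inside the cell, gave 0.26 ± 0.33. SLC2A2 (GLUT2), the low-affinity glucose carrier of liver and pancreatic islets, gave -0.28 ± 0.27, and its sign turned to 0.66 under normexp with the 75th percentile.

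SLC5A1 (SGLT1), which takes up glucose together with sodium, was lower in the aldosterone lung of all 4 pairs while its level differed greatly between pairs. The controls read -5.64, -5.58, -7.93 and -6.32 and their twins -5.77, -6.50, -8.18 and -6.67. Replicate 3 is the lowest lung of both groups, and the groups overlap. The log2 difference was -0.41 ± 0.62 (SE), with an unadjusted limma p of 0.527 without the pairing and 0.0435 when replicates were blocked, where adjusted p = 0.878. The pair differences were -0.13, -0.92, -0.25 and -0.35. It is a dim probe, above background on 3 control and 2 aldosterone arrays, and the sign turned under normexp with the 75th percentile, to 0.67. The second probe shares 40 bases with it and was lower in 3 of 4 pairs.

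Carriers that stood out in a single lung. SLC2A5 (GLUT5), the fructose carrier, and SLC11A1 (NRAMP1), which pumps metal ions out of the phagosomes of macrophages and neutrophils, have positive group differences that rest on aldosterone replicate 2. SLC2A5 read -5.83, -5.47, -6.58 and -5.99 in controls and -5.04, -0.23, -6.35 and -7.76 after aldosterone. That lung stood 4.80 log2 units, or 27.9-fold, above the next highest lung, which was the largest such excess of this lung among the 12170 tested probes. The second SLC2A5 probe, not tested because it was above background on only 2 arrays, read -0.32 there and from -7.78 to -6.07 in the other 7 lungs. For SLC11A1 the controls read -2.72, -2.02, -2.02 and -1.74 and the aldosterone lungs -3.41, 0.65, -2.55 and -1.48. Its second probe, from another stretch, showed the same lung at -0.30 and the others between -4.42 and -2.95.

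The group differences were 1.13 ± 1.36 (SE) for SLC2A5 and 0.42 ± 0.75 for SLC11A1. Without aldosterone replicate 2 both turned negative, to -0.41 ± 0.58 and -0.36 ± 0.44. Aldosterone replicate 2 held 24 probes that exceeded every other lung by more than 2 log2 units, and control replicate 4 held 26, against 0 to 4 in each of the other 6 lungs. The named genes among those of aldosterone replicate 2 included AREG, an epidermal growth factor receptor ligand, MMP7, an epithelial matrix protease, and intelectin (ITLN). These genes were chosen after their values were seen. The 8 tested myeloid markers, for cells known to use SLC11A1, had a summed level of 2.74 to 4.80 in controls and of 2.16 to 3.11 after aldosterone on the log2 scale, with 6 of 8 lower after aldosterone. CYBB, the oxidase subunit of phagocytes, was highest in aldosterone replicate 2 at -3.92, where the other lungs lay between -5.94 and -4.65. None of the other 7 markers was highest in that lung. Outside the list, LYZ, FCGR2B and C5aR, which myeloid cells also express, did stand above every other lung there. The excess was 1.88 and 1.87 log2 units by the LYZ probes, 1.51 for FCGR2B and 1.44 for C5aR. They too were picked after their values were seen. The part of myeloid cells in the SLC11A1 values was not tested.

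**Figure D3:**
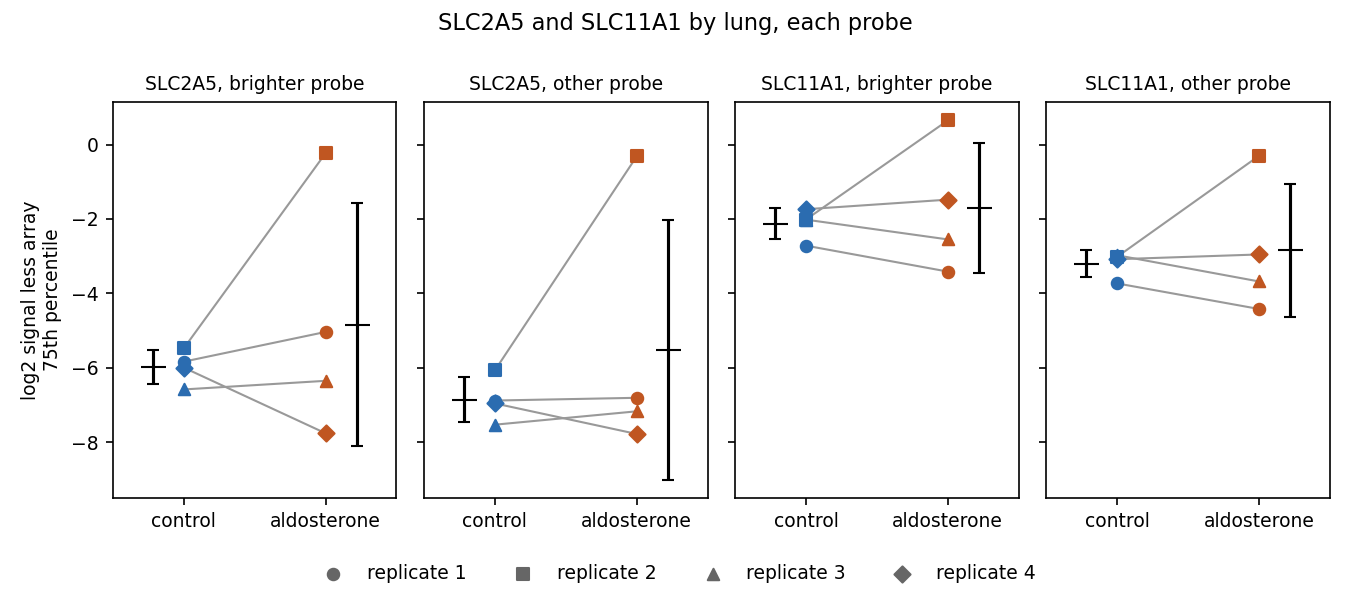
The y axis is the log2 signal less the array's 75th percentile for each probe of SLC2A5 and SLC11A1, with same-numbered lungs joined and black bars for the group mean ± SD (n = 4). Aldosterone replicate 2 (square) lies at -0.23 and -0.32 for SLC2A5 and at 0.65 and -0.30 for SLC11A1, above every other lung.

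Monocarboxylate carriers. SLC16A1 (MCT1), which carries lactate and pyruvate with a proton, and SLC5A8 (SMCT1), which carries them with sodium, both had lower means after aldosterone, and neither passed the test. SLC16A1 read -1.08, -0.39, 0.00 and -0.37 in controls and -0.98, -0.81, -0.60 and -0.76 after aldosterone. It was lower in 3 of 4 pairs, while control replicate 1 was the lowest lung of all. The log2 difference was -0.33 ± 0.22 (SE) with an unadjusted limma p of 0.179. Without control replicate 1 it was -0.53, with an unadjusted p under 0.05 and groups that did not overlap, and without control replicate 3 it was -0.17. SLC5A8 was among the steadiest carriers, between -0.04 and 0.38 in all 8 lungs, with a difference of -0.04 ± 0.14.

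Metal carriers. The 4 metal carriers all had higher means after aldosterone, with groups that overlap for each. For SLC11A1, described above, the higher mean rested on aldosterone replicate 2, and without that lung the difference was -0.36 ± 0.44 (SE). SLC39A7 (ZIP7), which releases zinc from the endoplasmic reticulum and Golgi, was higher in 4 of 4 pairs. It read -1.45, -1.49, -1.77 and -1.47 in controls and -1.32, -1.47, -0.97 and -1.20 after aldosterone. The 0.30 ± 0.15 (SE) difference had an unadjusted limma p of 0.077, and the lowest control, replicate 3, faces the highest aldosterone lung. That pair alone gave 0.80, and the other pairs gave 0.13, 0.01 and 0.27. The zinc carriers SLC39A3 and SLC39A13 varied little, at 0.07 ± 0.13 and 0.03 ± 0.14. The direction of SLC39A13 turned with centring, to -0.03 in the authors' values.

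Carriers of mitochondria. All 12 members of the SLC25 family on the array could be tested, with higher means after aldosterone for 8, lower means for 4, and a median difference of 0.11.

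The ADP/ATP carriers exchange the ATP made in mitochondria for ADP of the cytosol, and the array held SLC25A4, SLC25A5 and SLC25A6. Their probes share no run longer than 6 bases. SLC25A5 read 2.07, 2.03, 2.06 and 2.29 in controls and 2.21, 2.78, 2.23 and 2.37 after aldosterone. It was higher in 4 of 4 pairs, with a difference of 0.29 ± 0.16 (SE), and 0.16 ± 0.14 without aldosterone replicate 2, its highest lung. SLC25A6 gave 0.22 ± 0.32 and SLC25A4 -0.14 ± 0.38. Both of these varied more between pairs than between groups. SLC25A4 read 1.36, 1.41, 1.70 and 2.41 in controls and 0.98, 0.96, 1.86 and 2.53 in their twins. In either group replicates 1 and 2, which lay on the first row of the slide, were below replicates 3 and 4 on the second, and the same held for SLC25A6. Slide row and twin set cannot be told apart there.

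Among the remaining SLC25 carriers, the groups of those named next overlapped. SLC25A38, a glycine carrier needed for haem synthesis, differed by 0.24 ± 0.27 (SE), SLC25A20, the carnitine and acylcarnitine carrier, by 0.18 ± 0.15, and SLC25A11, the oxoglutarate carrier, by 0.14 ± 0.14. SLC25A26, which carries S-adenosylmethionine, was higher in 4 of 4 pairs by 0.02 to 0.13, and its difference of 0.08 ± 0.20 is small beside the spread between pairs. SLC25A17, a carrier of the peroxisome, gave 0.02 ± 0.19. The lower means were -0.18 ± 0.19 for the pyrimidine nucleotide carrier SLC25A33, -0.06 ± 0.38 for the dicarboxylate carrier SLC25A10 and -0.03 ± 0.14 for the probe named SLC25A37 (mitoferrin-1), an iron carrier.

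**Figure D4:**
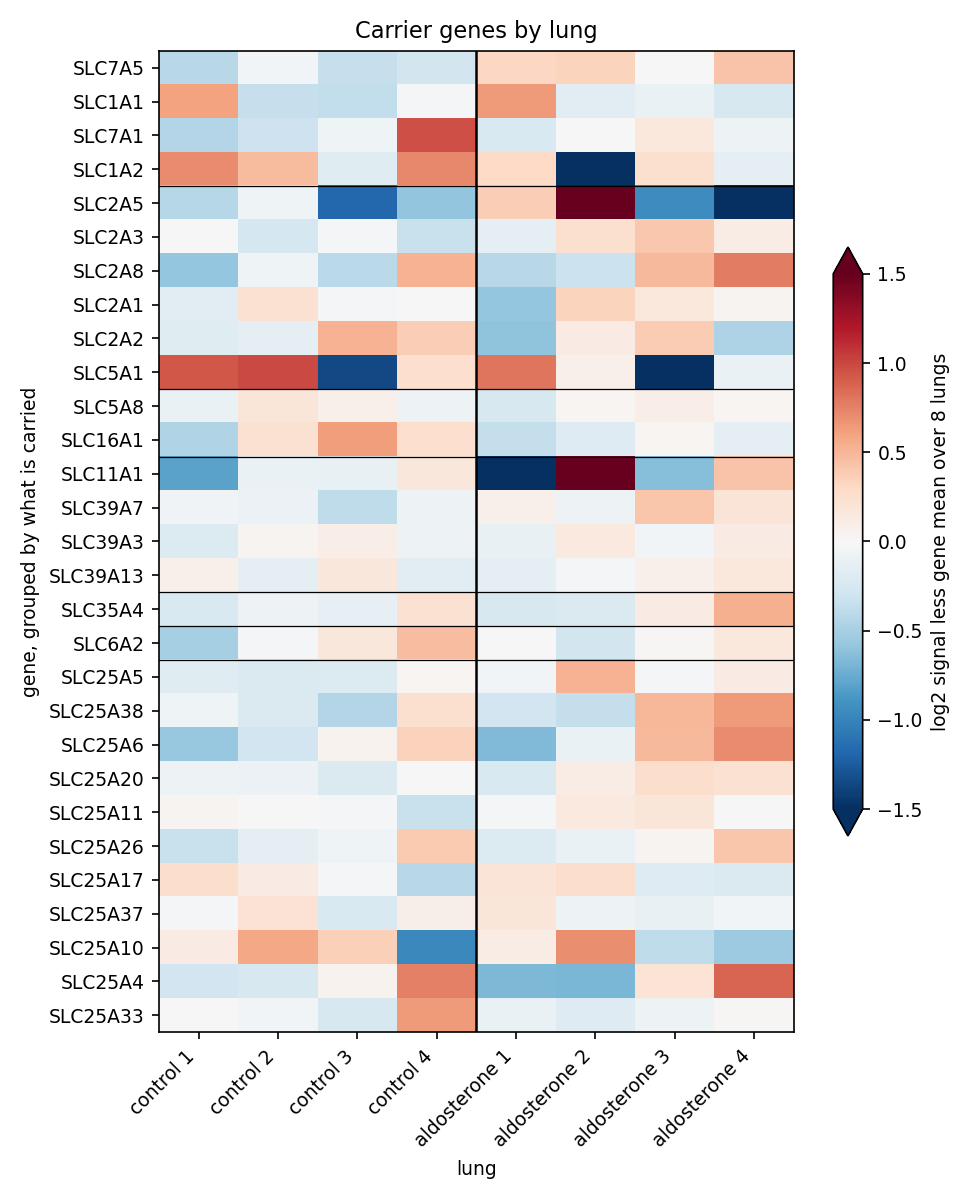
Each row is a carrier gene and each column a lung, and the colour is the log2 signal less the gene's mean over the 8 lungs, with values past 1.5 shown at the end of the scale. SLC7A5 is mostly red in the aldosterone columns and blue in the control columns, and SLC2A5 and SLC11A1 are at the end of the scale in aldosterone replicate 2.

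Remaining carriers. SLC35A4, of the nucleotide sugar carrier family, differed by 0.10 ± 0.20 (SE), and SLC6A2, the noradrenaline carrier, by -0.05 ± 0.21. Of 3 ion carrier genes that the rule takes in, 0 were tested. The sodium/hydrogen exchanger SLC9A3 and the sodium bicarbonate carrier SLC4A4 were well above background on 0 of 8 arrays, so the array gives no difference for them.

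The 9 genes with 2 tested probes had the same sign by both probes. For 7 of these the pair shares 40 or more bases, and such a pair is close to a repeat of the same measurement. Only SLC2A3 and SLC11A1 were measured by tested probes from different stretches.

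Genes whose pattern over the 8 lungs was most like that of SLC7A5 were DLL4, a Notch ligand of endothelium (Pearson r = 0.90), ARPC5L, a subunit of the actin-nucleating complex (0.82), ABCB1, the drug efflux pump (0.80), and CDK2, a kinase of the cell cycle (0.78). These are the 4 highest of 787 named genes over 8 lungs, given as a description, and all 8 lungs enter both sides of each correlation. Group means were not removed, so a shared group difference enters the likeness. After aldosterone DLL4 was higher by 0.47 ± 0.16 (SE), ARPC5L by 0.19 ± 0.13, ABCB1 by 0.48 ± 0.23 and CDK2 by 0.29 ± 0.12. The likeness of SLC2A3 to SLC7A5 was lower, at 0.33.

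Other genes of these pathways were read from lists chosen along with the members. Of the amino acid stress and serine synthesis list 6 of 14 genes were on the array, of which 5 averaged higher after aldosterone and 1 lower, and 0 reached an unadjusted p under 0.05. PSPH, the last enzyme of serine synthesis, was higher in 4 of 4 pairs, by 0.41 ± 0.19 (SE), and when replicates were blocked its unadjusted limma p was 0.0327. Of the mTORC1 list 2 of 17 were measured, and both had differences smaller than their standard errors. For glycolysis 7 of 18 were measured, 5 higher and 2 lower, with 0 at an unadjusted p under 0.05. GAPDH, a glycolytic enzyme, gave 0.50 ± 0.35 and was higher in 4 of 4 pairs, with an unadjusted limma p of 0.0213 when replicates were blocked. HIF1A of the same list gave -0.35 ± 0.24 and was lower in 4 of 4 pairs, with a blocked unadjusted limma p of 0.072. The sodium pump that drives SLC1, SLC5 and SLC6 carriers was represented here by ATP1B1, a beta subunit, which differed by -0.05 ± 0.20. Of the ABC transporters ABCB1 gave 0.48 ± 0.23, with an unadjusted limma p of 0.0644 and of 0.0131 when replicates were blocked, and ABCG2 0.07 ± 0.18. After adjustment over all probes p was 0.878 in the blocked fit for PSPH, GAPDH and ABCB1 alike. In that fit 4.43% of all tested probes had an unadjusted limma p under 0.05.

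The arrays all lay on 1 slide in 2 rows. Within the first and the second row the difference was 0.55 and 0.52 for SLC7A5 and 0.18 and 0.44 for SLC2A3, while for 12 of the 30 genes the rows gave opposite signs. Between 76.49% (aldosterone replicate 4) and 85.41% (control replicate 4) of spots per array were well above background. Aldosterone replicate 4 was the highest lung for 21.1% of all tested probes, against 9.42% to 12.5% for each other lung. The 75th percentile of log2 signal was 10.23 to 10.73, and arrays correlated over probes at 0.966 to 0.989. All 7 lung markers on the array, of 10 listed, including surfactant proteins SFTPA1, SFTPB and SFTPC, were well above background in every lung. With 4 arrays a group precision is limited, and the median standard error over all probes was 0.20, or 0.14 when replicates were blocked.

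**Figure D5:**
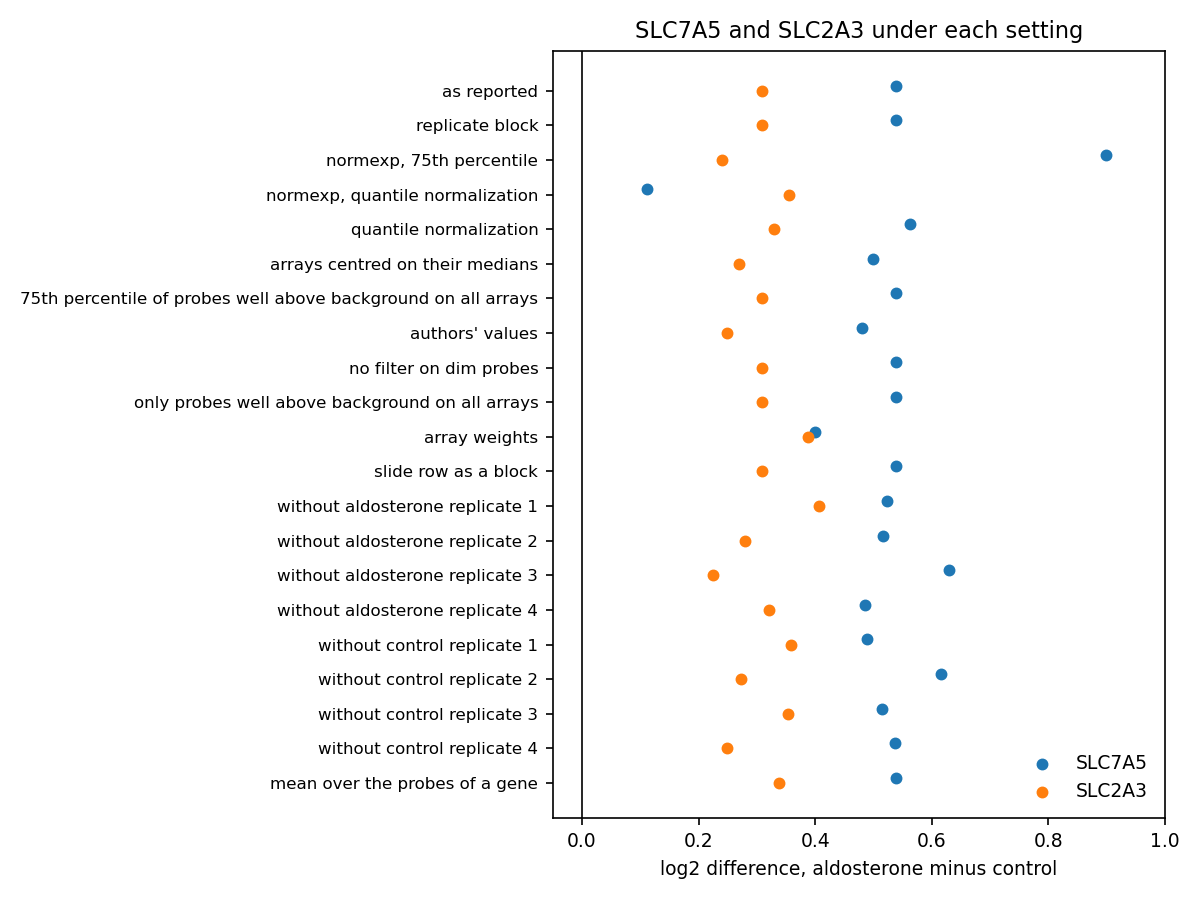
The x axis is the log2 difference, aldosterone minus control, of SLC7A5 and SLC2A3 under each processing setting named on the y axis. SLC7A5 runs from 0.11 to 0.90, SLC2A3 from 0.22 to 0.41, and neither crosses 0. The 0.90 comes from normexp with the 75th percentile, a setting that also raised other dim carriers.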

How the data were processed

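RNA of 8 fetal lungs was hybridised to 1-colour sheep arrays, 450 ng per array, all on 1 slide in 1 scan. Per the file headers, the authors' intensity values come from Agilent Feature Extraction 10.1.1.1, which subtracted background and recorded no normalization between arrays. The series table that the authors deposited gives log2 values for 12762 of these spots, found here to be the log2 processed signal less a constant per array. It served as an alternative.

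For 15208 spots, the processed signal was put on the log2 scale, each array's 75th percentile was subtracted, and spots were averaged to 15008 probes, without 74 values flagged as outliers. Groups were compared with limma 3.58.1 in R 4.3.3, two-sided, without a block, with Benjamini-Hochberg adjustment over 12170 tested probes and a threshold of 0.05. The fit was tested on simulated data. Names come from the files and a RefSeq table (ARS-UI_Ramb_v3.0). The probe with the highest mean stands for a gene. The rule for named genes takes SLC7A5, SLC2A3 and, with 30 genes tested or fewer, all of them, plus the 5 genes most like SLC7A5. Members and lists were chosen with earlier results of these data known.

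The labels name twins. After removing group means, same-numbered lungs correlated at 0.446, 0.275, 0.280 and 0.538 over probes, against -0.449 to 0.203 for others. Every same-numbered pair exceeded the threshold of 0.1, and the numbers were taken to pair the lungs. Aldosterone replicate 1 with control replicate 2 (0.203) and aldosterone replicate 3 with control replicate 4 (0.110) also exceeded 0.1. The arrays of each such pair share a slide row, as same-numbered arrays do, so the threshold alone does not mark twins. Normalization, background correction, filters, array weights, slide row, probe averaging, the authors' values, wider membership and leaving out each lung were tried as alternatives. Some results of genes in the lists are not reported here. Fetuses are separate animals, 4 per group.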

Additional observations from a re-analysis of the deposited data

Results flagged for a closer look

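In 4 of 60 groups of 4 lungs examined, 1 lung stood far from the other 3, where chance marks about 1 in 20 groups. The measure is the gap to the nearest lung divided by the group's range, with 0.829 as the critical value. SLC1A1 was highest in aldosterone replicate 1 (0.832), at -2.79 against -3.67 to -3.52 in the others. Control replicate 4 was lowest of its group for SLC25A11 (0.847), at -1.87 against -1.55 to -1.50. For SLC25A5 control replicate 4 was highest (0.851), at 2.29 against 2.03 to 2.07. SLC39A7 was lowest in control replicate 3 (0.889), at -1.77 against -1.49 to -1.45.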

How the results depend on the processing

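No member passed the adjusted threshold under any of the alternatives run. The direction held in all of them for 12 of the 30 genes, SLC7A5, SLC2A3, SLC39A7, SLC25A5 and SLC16A1 among them, and changed under at least 1 for 18, none of which was called. Probes with an unadjusted limma p under 0.05 numbered 228, and 539 with the replicate block, 1257 with normexp and the 75th percentile, 932 with array weights, 343 with slide row as a block, and 143 to 422 without 1 lung (422 without aldosterone replicate 1, 383, 146, 143 and 386 without control replicates 1 to 4). Carrier genes with such a p numbered 2, and 4 with normexp and the 75th percentile, 4 with array weights, 1 in the authors' values and 1 to 3 without 1 lung, with SLC7A5 alone left at 1 without aldosterone replicate 3 or 4 or control replicate 3. Under normexp with quantile normalization the number was again 2, but the genes were SLC25A5 and SLC2A3. SLC2A3 also had such a p with array weights, without aldosterone replicate 1, and with the mean over the probes of a gene. In that last setting 3 carrier genes had such a p. With the replicate block carrier genes with such a p numbered 3, since SLC5A1 was added, and the pairing changed no other call among the 30 genes. Carrier genes with groups that did not overlap numbered 2, and 1 under normexp with quantile normalization, quantile normalization, median centring, the 75th percentile of probes well above background on all arrays, and the authors' values, and 2 to 4 without 1 lung, the 4 without aldosterone replicate 1 including SLC2A3 and SLC25A20. SLC7A5 overlapped under either quantile normalization and was the 1 gene in the other 3. The median carrier difference was 0.07, and 0.32 with normexp and the 75th percentile, which shifted the median of all probes to 0.17. In that setting 98.3% of probes with an unadjusted p under 0.05 were higher after aldosterone, against 68.0% as reported, 52.5% with arrays centred on their medians and 43.3% in the authors' values. The cause was not tested. A wider membership, added after the probe names were seen, took in 36 genes, 21 higher and 15 lower. Probes near background, such as those of SLC7A5, SLC1A2, SLC2A2 and SLC5A1, have the least certain differences.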

Other observations

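Some carriers are left out by the wording of the rule. SLC15A1, the intestinal peptide carrier, was also highest in aldosterone replicate 2. By its brighter probe that lung read -1.59, where the other 7 lungs lay between -3.95 and -3.39. The group difference by that probe was 0.66 ± 0.43 (SE). By the dimmer probe the same lung read -1.33, the others lay between -6.64 and -3.22, and the group difference was 1.46 ± 0.93 (SE). SLC2A4 (GLUT4), the insulin-regulated glucose carrier, differed by -0.23 ± 0.20 (SE, n = 4 per group), SLC12A4, a potassium chloride carrier, by 0.15 ± 0.26, and SLC17A5 (sialin), which exports sialic acid from lysosomes, by -0.16 ± 0.28.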
